A study of Mus musculus with 2 samples.

Results

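The genes of the Notch receptors and of their ligands were followed in the pleuroperitoneal folds (PPFs) of mouse embryos, together with Rbpj and Hes1, the nuclear effector and a target gene of the pathway. The set was fixed by gene symbol as Notch1, Notch2, Notch3, Notch4, Dll1, Dll4, Jag1, Jag2, Rbpj and Hes1, and all 10 were found among the 38926 genes listed in the deposited files. PPFs are paired folds of the embryonic trunk that give rise to the connective tissue of the diaphragm and through which its muscle progenitors migrate. The series consists of 1 group of 2 libraries, replicates 1 and 2, each made from 2 pooled PPF pairs of untreated wild-type embryos at embryonic day 12.5, of the strain background labelled "mixed, 129s/SvlmJ-C57/BL6J". It holds no mutant, treated, later or other-tissue sample, so the values below are levels with the difference between the 2 libraries and no test between conditions. Its stated purpose is to set priorities among candidate genes from human studies of congenital diaphragm defects. The libraries were poly(A)-selected and stranded, and the heart and lungs had been removed before dissection.

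Notch receptors are single-pass membrane proteins that are activated by ligands of the Delta-like and Jagged families on a neighbouring cell. Ligand binding exposes the receptor to cleavage by an Adam protease and then by gamma-secretase, and the released intracellular domain enters the nucleus, where it binds the DNA-binding protein Rbpj and turns it from a repressor into an activator of genes such as Hes1. In embryonic trunk mesoderm the pathway is known for somite segmentation, for keeping muscle progenitors undifferentiated, and for arterial and mural cell development.

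Replicate 1 held 26370253 counts and replicate 2 held 23255957. Levels are given as TPM, in which each count is divided by the gene's length and all values of a library are scaled to 1 common sum. Genes with at least 1 TPM in both libraries were called expressed. A difference between the libraries is the log2 ratio of replicate 1 over replicate 2 from counts scaled by TMM factors, with a 95% interval from the exact binomial distribution. These intervals, and those on single TPM values, come from the counts of single libraries. They cover counting error only, and not variation between embryos or dissections. They also take each read as a separate molecule, which amplified reads without molecular identifiers need not be. The folds were dissected by hand, and markers of neighbouring organs differed between the libraries. The 5 hepatoblast markers summed to 97.7 TPM in replicate 1 and 263 TPM in replicate 2, the 7 neuronal markers to 7.45 and 21.7 TPM, and the 6 nephric and gonadal markers to 33.7 and 13.4 TPM. The 5 PPF fibroblast markers were all expressed and summed to 3477 TPM in replicate 1 and 3536 TPM in replicate 2, of which Col1a1 made up 2798 and 2822 TPM. Gata4 stood at 173 TPM in replicate 1 and 178 TPM in replicate 2, and Pdgfra at 360 and 377 TPM. The labels call the libraries biological replicates and do not say whether their embryos came from separate litters. In whole folds, fewer cells of a type and less RNA per cell cannot be told apart.

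The promoters of the set are shown first, for what they have in common beyond membership. RefSeq promoter windows on GRCm38.p6 were given for 9 of the 10 genes, all but Hes1, and the 250 bases before each annotated start were read 5′ to 3′ on the gene's strand. TGGGAA, the core of the Rbpj binding site, was searched on both strands, so that TTCCCA also counted. It was found in 21.6% of the 32851 promoter windows of all genes, and among these 9 genes in the windows of Rbpj alone. The window printed here, 1 of the 2 given for Rbpj and inside the span that the files list for the gene, is shown because it holds the matches, which are in capitals. They lie 149 bases before the start as TGGGAA and 65 bases before it as TTCCCA, and the other window, which overlaps this one, holds the second of them.
Rbpj, chr5:53590096-53590345, plus strand: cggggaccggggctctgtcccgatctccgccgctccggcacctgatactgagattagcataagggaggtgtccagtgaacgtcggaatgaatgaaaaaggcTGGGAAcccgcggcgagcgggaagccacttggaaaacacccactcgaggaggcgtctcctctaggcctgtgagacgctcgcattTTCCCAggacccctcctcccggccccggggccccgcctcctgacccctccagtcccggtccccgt
The longer forms TGTGGGAA and CGTGGGAA, which contain the core, occurred in 1.46% and 0.636% of all windows and in none of these. A match describes letters in a window and does not show binding.

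The promoters of the most and the least abundant receptor genes, Notch3 and Notch4, are printed with every CpG in capitals because they differ in CpG content, and that of Jag2 because it holds the most in the set.
Notch3, chr17:32166891-32167140, minus strand: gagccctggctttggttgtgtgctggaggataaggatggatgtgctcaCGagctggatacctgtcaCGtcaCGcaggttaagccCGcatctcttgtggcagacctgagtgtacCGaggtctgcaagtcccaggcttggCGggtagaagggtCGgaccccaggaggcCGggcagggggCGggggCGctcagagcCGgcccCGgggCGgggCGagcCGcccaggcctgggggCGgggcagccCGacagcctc
Notch4, chr17:34564045-34564294, plus strand: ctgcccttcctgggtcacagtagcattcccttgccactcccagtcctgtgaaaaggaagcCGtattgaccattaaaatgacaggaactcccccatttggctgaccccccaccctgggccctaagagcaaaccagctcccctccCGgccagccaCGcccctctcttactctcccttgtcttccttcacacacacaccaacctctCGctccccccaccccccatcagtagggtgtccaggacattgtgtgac
Jag2, chr12:112929496-112929745, minus strand: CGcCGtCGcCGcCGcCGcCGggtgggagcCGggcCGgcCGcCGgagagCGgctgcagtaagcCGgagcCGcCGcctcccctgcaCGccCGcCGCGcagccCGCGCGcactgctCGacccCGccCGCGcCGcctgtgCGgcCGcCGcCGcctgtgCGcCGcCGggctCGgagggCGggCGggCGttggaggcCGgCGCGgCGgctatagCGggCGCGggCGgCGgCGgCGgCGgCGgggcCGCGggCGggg
Notch3 had 17 CpGs in its window and Notch4 had 4, against a median of 6 over all windows. Notch4 was the only gene of these 9 below that median. The Jag2 window had 54 CpGs, more than 99.98% of all windows, and 87.2% G or C. Notch2 had 34 CpGs. Notch1 had 16, next to the 17 of Notch3, at mean levels of 18.6 TPM for Notch1 and 110 TPM for Notch3. The windows of Dll1, Dll4, Jag1 and Rbpj had between 13 and 25. Whether CpG content goes with level was not tested.

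All 10 genes were expressed in both libraries, where 63.8% of 20386 protein-coding genes were. Of the 10 genes, 8 also reached 10 TPM in both libraries, a level that 46.6% of protein-coding genes reached. The median level of the set was 17.7 TPM, against 27.0 TPM over the 12999 protein-coding genes that were expressed. The set therefore spans the lower and the upper part of the expressed range, with Notch3 above 88.4% and Dll4 above 20.8% of those expressed genes.

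**Figure D1:**
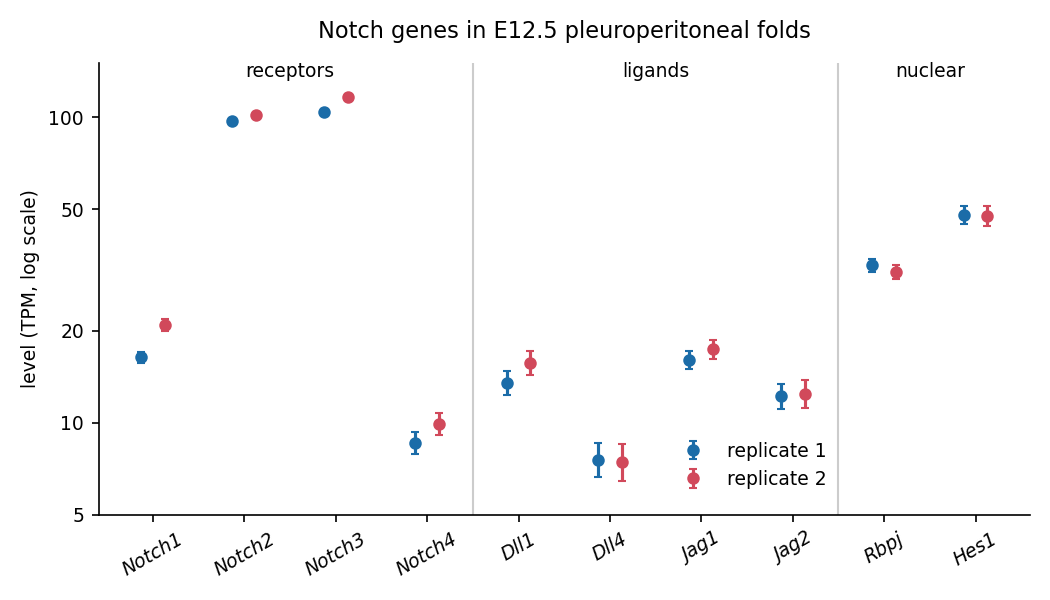
Level in TPM (log scale) of each gene in replicate 1 (blue) and replicate 2 (red), with 95% counting intervals, in the order receptors, ligands, nuclear factors. Notch2 and Notch3 sit at about 100 TPM in both libraries, Hes1 and Rbpj between 31.2 and 47.7 TPM, and the other 6 genes below 21 TPM.

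Among the receptors, Notch3 and Notch2 made up most of the transcripts. Notch3, the receptor known for its role in mural cells of vessels and also present in muscle progenitors, lies on chromosome 17 (32120820 to 32166880, minus strand). It had 104 TPM in replicate 1 from 7083 counts and 116 TPM in replicate 2 from 6804 counts, a mean of 110 ± 8.90 TPM (SD, n = 2). That mean exceeded the levels of 88.4% of expressed protein-coding genes. Notch2, a receptor used widely in embryonic mesenchyme, lies on chromosome 3 (98013538 to 98150367, plus strand). It had 97.0 TPM in replicate 1 (8647 counts) and 101 TPM in replicate 2 (7734 counts), a mean of 99.1 ± 3.02 TPM (SD, n = 2). Notch3 was the higher of the pair in each library, by 1.11 times in the mean, and their counting intervals did not overlap in either library.

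Notch1 and Notch4 were several times lower. Notch1, the receptor best known from T cells and also needed in somite formation, lies on chromosome 2 (26457903 to 26503822, minus strand). It stood at 16.4 TPM in replicate 1 (95% counting interval 15.65 to 17.10, 1976 counts) and at 20.9 TPM in replicate 2 (20.03 to 21.80, 2162 counts). Its libraries lay further apart than their counting intervals. Notch4, a receptor found mainly in endothelium, lies on chromosome 17 (34564268 to 34588503, plus strand), and stood at 8.58 TPM in replicate 1 (587 counts) and 9.90 TPM in replicate 2 (580 counts), a mean of 9.24 ± 0.930 TPM (SD, n = 2).

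Within a library the share of each receptor does not depend on the scaling between libraries. Notch3 held 46.0% of the summed receptor TPM in replicate 1 and 46.8% in replicate 2, and Notch2 held 43.0% and 40.8%. Notch1 followed with 7.25% in replicate 1 and 8.41% in replicate 2, and Notch4 with 3.80% and 3.98%. The order of the receptors was the same in both libraries. By raw counts, which favour long transcripts, Notch2 came first with 46.0% ± 1.78 of the receptor counts and Notch3 second with 39.0% ± 0.463 (SD, n = 2 each), so the order of this pair rests on the division by length.

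**Figure D2:**
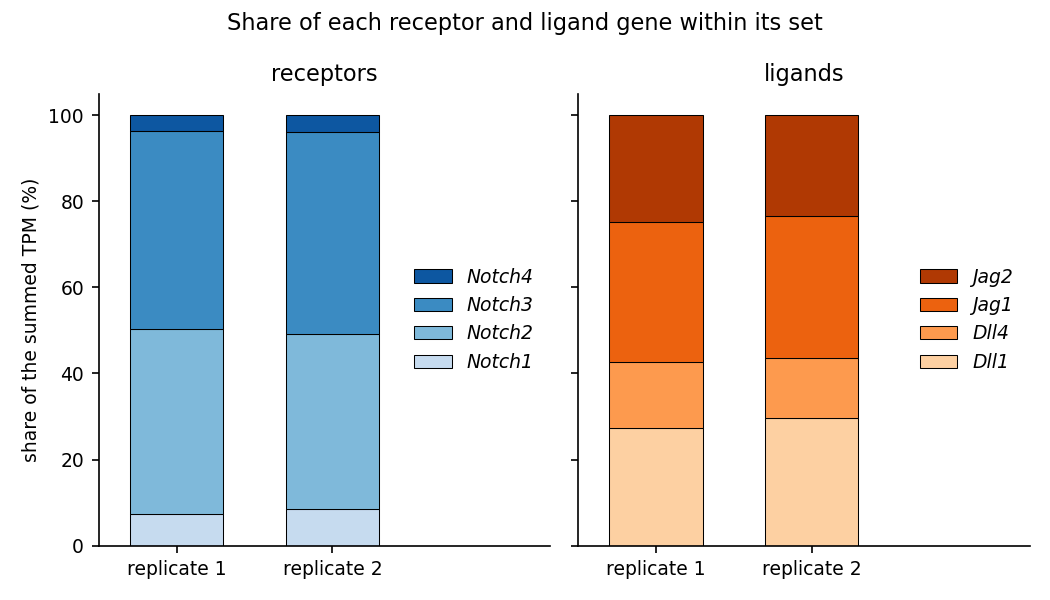
Share of each receptor gene (left, blues) and each ligand gene (right, oranges) in the summed TPM of its set, as stacked bars for replicate 1 and replicate 2. Notch2 and Notch3 fill most of the receptor bar, whereas no ligand holds more than 32.8%.

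The ligand genes were lower and closer to each other. Jag1, the Jagged ligand whose loss in humans causes bile duct, heart and vessel defects, lies on chromosome 2 (137081456 to 137116644, minus strand). It had 16.1 TPM in replicate 1 (794 counts) and 17.4 TPM in replicate 2 (736 counts), a mean of 16.7 ± 0.931 TPM (SD, n = 2). Jag2, the other Jagged ligand, lies on chromosome 12 (112908590 to 112929495, minus strand) and had 12.2 TPM in replicate 1 (420 counts) and 12.5 TPM in replicate 2 (367 counts). Both Jagged genes differed little between the libraries, and Jag1 was above Jag2 in each.

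Dll1, the Delta-like ligand known from somites and from the upkeep of muscle progenitors, lies on chromosome 17 (15367354 to 15375976, minus strand). Its level was 13.5 TPM in replicate 1 (484 counts) and 15.7 TPM in replicate 2 (482 counts), a mean of 14.6 ± 1.55 TPM (SD, n = 2). Dll4, the ligand of arterial and sprouting endothelium, lies on chromosome 2 (119325784 to 119335962, plus strand) and was the lowest of the 10 genes. It had 7.56 TPM in replicate 1 (247 counts) and 7.43 TPM in replicate 2 (208 counts), which is 7.49 ± 0.0912 TPM in the mean (SD, n = 2) and above 20.8% of expressed protein-coding genes.

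By share of the ligand TPM, Jag1 held 32.5% in replicate 1 and 32.8% in replicate 2, Dll1 27.4% and 29.7%, Jag2 24.7% and 23.5%, and Dll4 15.31% and 14.02%. The order of the ligands was the same in both libraries. The receptors together summed to 226 TPM in replicate 1 and 248 TPM in replicate 2, and the ligands to 49.3 and 53.0 TPM. Receptor transcripts thus exceeded ligand transcripts by 4.57 times in replicate 1 and 4.69 times in replicate 2. By raw counts, not divided by length, the ratio was 9.41 in replicate 1 and 9.64 in replicate 2.

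The nuclear genes lay between the abundant and the scarce receptors. Hes1, a basic helix-loop-helix repressor and direct target of the pathway, stood at 47.7 TPM in replicate 1 (825 counts) and 47.4 TPM in replicate 2 (702 counts), a mean of 47.6 ± 0.229 TPM (SD, n = 2). It was above 68.0% of expressed protein-coding genes. The files place it on chromosome 16 from 30064384 to 30065569, a span of 1186 bp that is shorter than its gene length of 2037 bp. That span covers only part of the gene as GENCODE M21 annotates it, whereas the gene length equals the annotated union of exons. Rbpj, which binds DNA for all Notch receptors, lies on chromosome 5 (53555779 to 53657445, plus strand). It had 32.7 TPM in replicate 1 (1616 counts) and 31.2 TPM in replicate 2 (1318 counts), a mean of 32.0 ± 1.11 TPM (SD, n = 2). RefSeq lists 3 Rbpj pseudogenes, under symbols that were not found in the files, and reads that match a near-identical copy can be lost or misplaced in counting, so the level of Rbpj is less certain than its counts imply.

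Ordered by mean TPM, the genes ran Notch3, Notch2, Hes1, Rbpj, Notch1, Jag1, Dll1, Jag2, Notch4 and Dll4, and each was above the next in both libraries. The ranges of the 2 libraries overlapped for 1 pair of neighbours, Notch1 and Jag1. Their counting intervals overlapped in replicate 1 but not in replicate 2. Counting intervals also overlapped in 1 library for Jag1 with Dll1, Dll1 with Jag2, and Notch4 with Dll4, so the order within these pairs was not separated at this depth in both libraries.

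The order depends in part on the length by which counts are divided. For 6 of the 10 genes the deposited gene length equalled the union of all exons annotated in GENCODE M21, which counts retained introns and non-coding isoforms as well. For Notch1 that length is 14232 bp, whereas its longest protein-coding transcript has 9488 bp. Divided by the longest coding transcript instead, Notch1 stood at 27.9 ± 4.81 on the same TPM scale, 1.5 times its deposited level of 18.6 ± 3.21 TPM (SD, n = 2 each). Hes1 then stood at 66.0 ± 0.318, and Notch4 at 11.3 ± 1.14. Jag2 moved the other way, to 9.79 ± 0.137, because its deposited length of 4054 bp is below the 5106 bp of its longest coding transcript. Jag2 and Notch4 then changed places, and the ligands Jag1 and Dll1 drew level at 17.4 ± 0.966 and 17.2 ± 1.83. Notch3, Notch2, Hes1 and Rbpj kept the first 4 places in this order, and the ratio of receptors to ligands was 4.78 ± 0.0832 (SD, n = 2), against 4.63 ± 0.0816 by the deposited length.

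**Figure D3:**
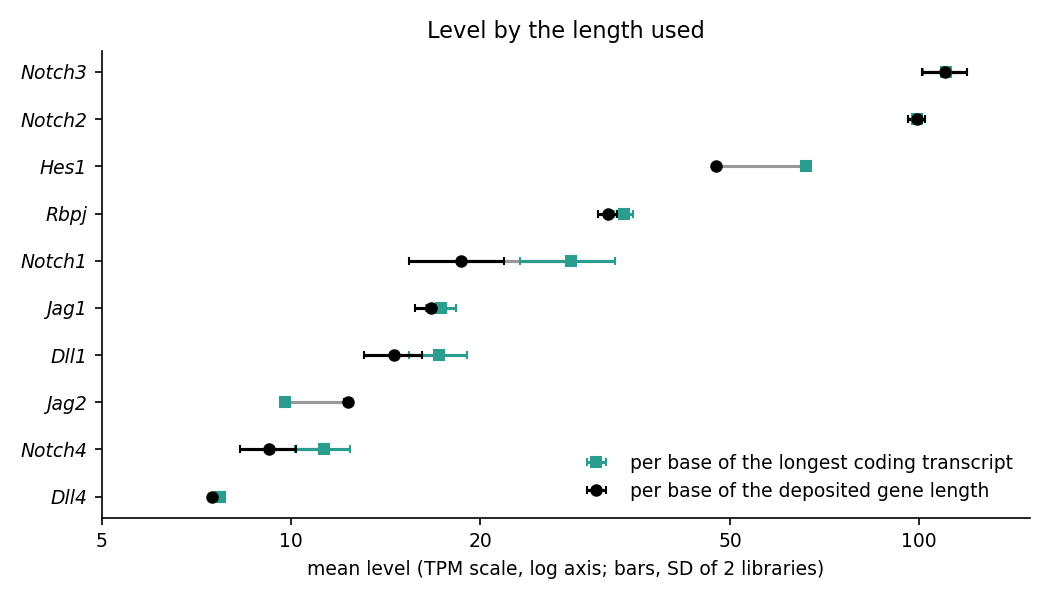
Mean level of each gene on the TPM scale (log axis) by the deposited gene length (black circles) and by the longest protein-coding transcript of GENCODE M21 (green squares), with bars for the SD of 2 libraries. Notch1 and Hes1 move up, Jag2 moves down, and Notch2 and Notch3 stay within 1% of their deposited level.

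In GENCODE M21, 5 of the 10 genes share exon bases with other genes. Dll1 shares 20.5% of its exon bases with A930024N18Rik on the opposite strand, which had 66 counts in replicate 1 and 66 in replicate 2. Notch1 shares 7.504% with 0610009E02Rik, which had 325 and 309 counts, and 2.91% with Gm13568, which had 84 and 68, both on the opposite strand. Notch3 shares 6.03% with Gm17276, an opposite-strand gene with 500 counts in replicate 1 and 496 in replicate 2. Dll4 shares 5.56% with Gm14207 on the opposite strand, which had 22 and 25 counts. Each of these 5 neighbours had at most 16.4% of the counts of the gene it overlaps, in either library. Notch2 shares 5.02% with Gm42820 on its own strand. Whether counting used strand is not given in the sources at hand, so reads of overlapping genes cannot be told apart. Notch4, Jag1, Jag2, Rbpj and Hes1 share no exon bases in that annotation.

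Between the libraries, 0 of the 10 genes differed by 1.5-fold or more, and all 10 had passed the filter of 10 counts over both libraries. Of the 19433 genes that passed this filter, 11.2% differed by that much, and of the 14093 with at least 100 counts, as each of the 10 had, 2.14% did. The counting interval of the ratio excluded 0 for 3 of the 10 genes, Notch1, Notch3 and Rbpj, against 27.2% of all genes tested and 34.4% of those with at least 100 counts. Both shares of the set lie near or below those over all genes.

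Notch1 had the largest difference of the set, with a log2 ratio of replicate 1 over replicate 2 of -0.31 (95% counting interval -0.40 to -0.23), so that replicate 1 was lower. Notch3 was lower in replicate 1 by a smaller amount, -0.13 (-0.17 to -0.078), and Rbpj was higher in replicate 1, at 0.11 (0.0039 to 0.22). With DESeq2 size factors in place of TMM the interval of Rbpj included 0 (-0.00090 to 0.21) and that of Notch4 did not (-0.34 to -0.0038). For Dll1 the ratio was -0.18 (-0.36 to 0.0066) and for Notch4 -0.17 (-0.34 to 0.0010), both with intervals that just include 0. The ratios of Notch2, Jag1, Jag2, Dll4 and Hes1 lay between -0.075 and 0.063, with intervals on both sides of 0. The median over the set was -0.049, against 0.018 over all genes with at least 100 counts.

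Gene length moved with the difference between the libraries over all genes. Among genes with at least 100 counts, the median log2 ratio of replicate 1 over replicate 2 was 0.093 for gene lengths under 2000 bp, 0.052 from 2000 to under 4000 bp and -0.017 from 4000 to under 8000 bp. It was -0.095 for the 1574 genes of 8000 bp or more, a class that holds all 4 receptor genes by deposited length. Notch3, at 8044 bp, and Notch4, at 8061 bp, lie close to its lower edge. In that class the 5th to 95th percentiles ran from -0.40 to 0.13, and the ratios of Notch1, Notch2, Notch3 and Notch4 all lay inside that range. The part of gene length in the ratios of the receptors was not tested.

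**Figure D4:**
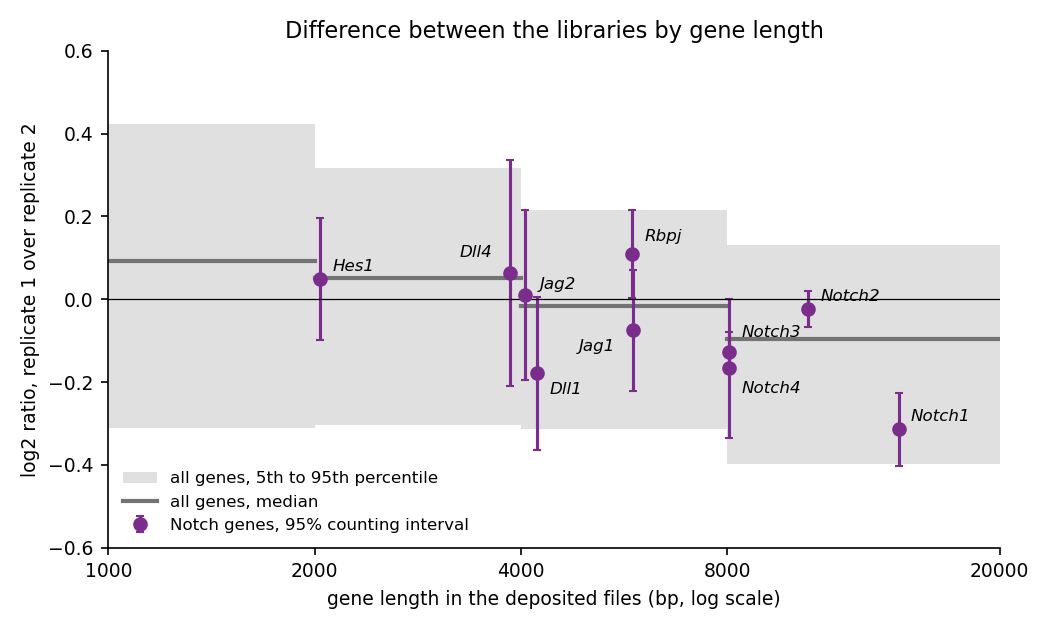
Log2 ratio of replicate 1 over replicate 2 against deposited gene length (log axis) for the 10 genes, with 95% counting intervals. Grey bands and lines give the 5th to 95th percentile and the median over all genes with at least 100 counts in 4 length classes, of which the shortest and the longest extend beyond the axis; each of the 10 points lies inside its band.

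Most markers of vessels and of muscle progenitors whose interval excluded 0 were lower in replicate 1. This was not particular to these cells, as the hepatoblast and the neuronal lists each had 4 intervals below 0 and 0 above. All 6 nephric and gonadal markers had intervals above 0, and the PPF fibroblast markers had 1 above and 1 below. Over all genes with at least 100 counts, 34.4% had an interval that excludes 0 in either direction. Of 8 endothelial markers all were expressed, with a sum of 226 TPM in replicate 1 and 264 TPM in replicate 2, and the ratio interval excluded 0 downwards for 4, among them Pecam1 at -0.50, and upwards for 1, Kdr at 0.13. The 4 arterial markers summed to 127 TPM in replicate 1 and 150 TPM in replicate 2, with 3 intervals below 0 and Gja4 past 1.5-fold at -0.65, as 2.14% of all genes with at least 100 counts were. The 6 mural cell markers summed to 317 and 353 TPM, with 5 intervals below 0 and none above. The 4 myogenic progenitor markers Pax3, Pax7, Myf5 and Lbx1 summed to 52.4 TPM in replicate 1 and 65.5 TPM in replicate 2, with 3 intervals below 0. The 4 markers of myoblasts and myocytes summed to 931 and 926 TPM, with 1 interval above 0, that of Myod1 at 0.15, and 0 below. None of the markers in the endothelial, arterial, mural, myogenic progenitor and myoblast lists had 0 counts in a library. Their part in the levels or ratios of the Notch genes was not tested.

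The other genes of the pathway were taken from 9 lists of 59 genes by role, all of them found in the files, 1 through an older symbol. Of these 59 genes, 53 were expressed in both libraries and 44 reached 10 TPM in both, against 63.8% and 46.6% of all protein-coding genes, and their median level was 27.2 TPM. The log2 ratio was past 1.5-fold in 1 of the 56 that passed the filter of 10 counts, and the counting interval lay above 0 in 5 and below 0 in 12. Over all genes tested the shares were 11.2% past 1.5-fold and 27.2% with an interval that excludes 0, and over those with at least 100 counts 2.14% and 34.4%, so the number of intervals that exclude 0 is near the background. The median ratio of the lists was -0.046.

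Among other ligands and ligand-like genes, Dlk1, an imprinted Delta-like gene whose product lacks the receptor-activating DSL domain, had the highest level at 653 ± 5.58 TPM (SD, n = 2). It had 657 TPM in replicate 1 and 649 TPM in replicate 2, more than the summed level of the 4 receptors. Dner, a ligand-like gene of neurons, stood at 10.1 TPM in replicate 1 and 12.7 TPM in replicate 2, with a ratio of -0.30 (-0.52 to -0.069). Dlk2 was at 1.96 ± 0.172 TPM, and Dll3, a Delta-like gene of the presomitic mesoderm that does not activate receptors, was not called expressed at 0.538 ± 0.0587 TPM, from 12 counts in each library (SD, n = 2 each).

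All 6 genes that glycosylate the receptors were expressed above 10 TPM. Poglut1, which adds O-glucose, stood at 51.3 ± 0.168 TPM, Pofut1, which adds O-fucose, at 41.4 ± 0.507 TPM, and Lfng at 41.2 ± 2.81 TPM (SD, n = 2 each). Lfng, Mfng and Rfng are the Fringe enzymes, which extend O-fucose and alter the response of receptors to their ligands. Mfng, at 11.8 ± 0.625 TPM, and Eogt, which adds O-GlcNAc, at 12.5 ± 1.31 TPM were the lowest of this list (SD, n = 2 each). The 4 ubiquitin ligase genes of ligand endocytosis were expressed as well, led by Mib1 at 60.7 ± 7.48 TPM, with Mib2 at 33.4 ± 0.595, Neurl1a at 19.9 ± 0.926 and Neurl1b at 4.38 ± 0.478 TPM (SD, n = 2 each). Mib1 was the only one of these 4 with a ratio interval that excluded 0, at -0.21.

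Of the 10 genes of receptor cleavage, 9 were expressed, all but Aph1c. The protease gene Adam10, which makes the first ligand-dependent cut, stood at 162 ± 6.84 TPM, and the gamma-secretase gene Ncstn at 110 ± 3.69 TPM (SD, n = 2 each). The lowest 2 genes were Psenen, a small gamma-secretase subunit gene, at 3.78 ± 0.966 TPM and Aph1c at 1.24 ± 0.377 TPM (SD, n = 2 each). The level of Psenen rests on only 17 counts in replicate 1 and 21 in replicate 2. Aph1c had 43 counts in replicate 1 and 57 in replicate 2, and was the 1 gene of the lists past 1.5-fold, at -0.59 with an interval of -1.20 to 0.0056 that includes 0. It is a close copy of Aph1b, so its counts are uncertain.

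The nuclear complex genes were all 7 expressed. Snw1, a coregulator gene, stood at 154 ± 2.15 TPM, the acetyltransferase gene Kat2a at 94.7 ± 2.83 TPM and Ep300, a coactivator gene, at 53.2 ± 6.10 TPM, and the lowest were Maml3 at 12.4 ± 1.254 and Kat2b at 9.92 ± 0.235 TPM (SD, n = 2 each). The 3 Mastermind genes Maml1, Maml2 and Maml3, whose products hold the receptor domain on Rbpj, had ratios of -0.17, -0.21 and -0.17, each with an interval below 0. In the same list Ep300, at -0.20, also had an interval below 0, and Kat2a, at 0.0996 (0.020 to 0.18), had one above 0. All 10 corepressor genes of Rbpj were expressed, among them Ncor1 at 64.1 ± 6.95 and Tle3 at 52.6 ± 0.489 TPM (SD, n = 2 each). The lowest of them were Rita1, which exports Rbpj from the nucleus, at 15.0 ± 1.66 TPM and Cir1 at 3.03 ± 0.0386 TPM (SD, n = 2 each). The 9 genes of receptor turnover were expressed too, with the Deltex gene Dtx3 at 186 ± 3.15, the ubiquitin ligase gene Itch at 40.3 ± 2.94 and Numb, an inhibitor of the receptors, at 39.8 ± 1.24 TPM highest (SD, n = 2 each). Dtx2 at 15.4 ± 0.626 and Dtx1 at 9.82 ± 0.417 TPM were lowest (SD, n = 2 each).

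Of the 8 other Hes and Hey genes, 4 were expressed in both libraries. Hes6, which counteracts Hes1 and is known from differentiating myoblasts, was highest at 128 TPM in replicate 1 and 117 TPM in replicate 2, with a ratio of 0.17 (0.077 to 0.27). Hey1, a vascular and mesodermal target, stood at 43.3 ± 0.980 TPM and Heyl, known from mural cells and muscle progenitors, at 36.6 ± 3.06 TPM (SD, n = 2 each). By the deposited lengths these 2 genes were thus near the level of Hes1, at 47.6 TPM. Divided by its longest coding transcript Hes1 stood at 66.0, and Hey1 and Heyl were not recomputed in that way. Hes5, the target best known from neural progenitors, had 3 counts in replicate 1 and 1 in replicate 2. Hes3 had 0 counts in replicate 1 and 1 in replicate 2, and Hes2 had 0 in both, which allows up to 0.134 TPM in replicate 1 and 0.156 TPM in replicate 2 from a floor of 3 counts. Beside them, the neural progenitor markers Neurog1 and Neurog2 had 0 counts in both libraries. Nrarp, a target that limits signalling, stood at 8.34 ± 0.0730 TPM (SD, n = 2).

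**Figure D5:**
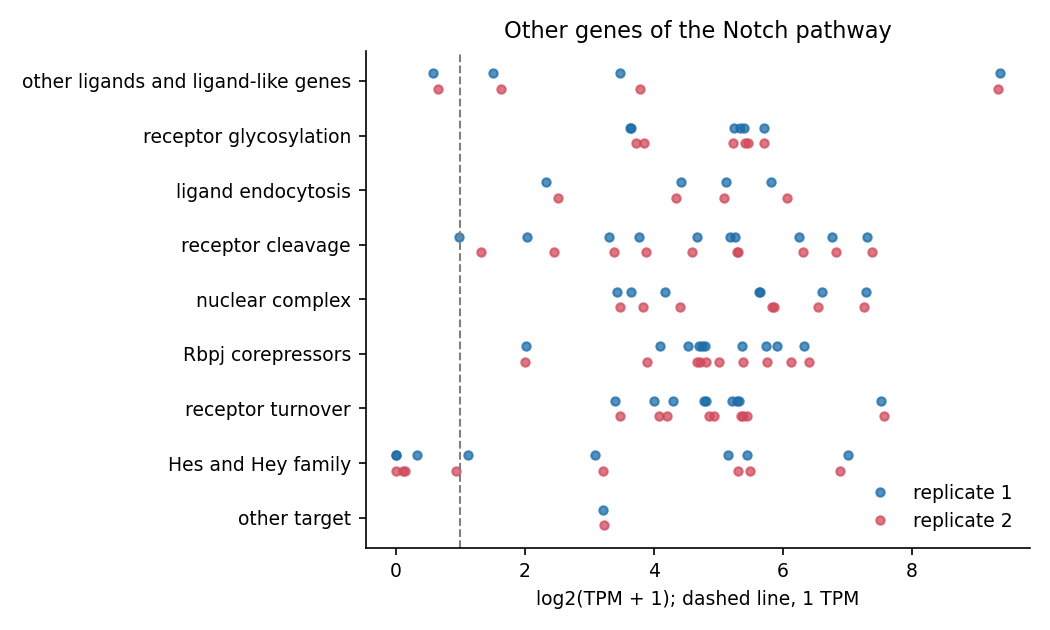
Level of the 59 other pathway genes as log2(TPM + 1), by list, in replicate 1 (blue) and replicate 2 (red). Most genes lie well above the dashed line at 1 TPM; Dlk1 is the point farthest to the right, and the points at the left end of the Hes and Hey row are Hes2, Hes3 and Hes5.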

How the data were processed

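RNA from 2 libraries of wild-type PPFs was analysed, each from 2 pooled pairs. The submitters' processing notes name featureCounts, STAR 2.4.0a and SAMtools 1.3, and mm9 as the build. Of the gene entries of GENCODE M21 (GRCm38) matched by symbol, 56.2% had the same chromosome, start and end as the files, so positions are given as GRCm38. The deposited count is a raw, unnormalised count per gene. The deposited TPM equalled count divided by the deposited gene length, scaled to a fixed sum, within 4.7e-11. The other deposited columns hold gene length and position.

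From the counts, the log2 ratio of replicate 1 over replicate 2 was computed with 0.5 added, scaled by TMM factors (1.001 and 0.999) from edgeR 4.0.16 under R 4.3.3, with Clopper-Pearson 95% intervals (scipy 1.17.1). With 1 library on each side no p-value was computed. Intervals on TPM are exact Poisson. The ratio step was run on simulated counts that held Poisson error only. That run checks the computation and not whether the intervals hold for these libraries. Named are all 10 genes and, of each pathway list, the 3 highest and 2 lowest by mean TPM and those past 1.5-fold with at least 100 counts. A few genes that this rule names are not reported here. Other pathway genes and single markers that are named were chosen after their values were seen. The 10 genes and the lists were chosen with earlier results of these data known. Alternatives were other scalings, thresholds, pseudocounts and lengths. The lists for endothelium, arterial endothelium, mural cells, myogenic progenitors, myoblasts, neurons, hepatoblasts, nephric and gonadal cells and PPF fibroblasts are reported above. Mesothelium (4 of 4 expressed, 349 TPM in replicate 1 and 370 TPM in replicate 2) and Schwann precursors (4 of 4, 98.3 and 115 TPM) complete them.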

Additional observations from a re-analysis of the deposited data

How the results depend on the processing

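The count of genes expressed stayed at 10 of 10 at a threshold of 5 TPM, without features under 200 bp, in each library alone and by the longest coding transcript, and was 8 at 10 TPM. No gene passed 1.5-fold under DESeq2 1.42.0 size factors, total counts, a pseudocount of 5, no filter or a filter of 100 counts, and the lower and the higher fold tried gave 0 genes as well. The ratio interval excluded 0 for 3 genes under both other scalings, but with DESeq2 size factors Notch4 (-0.17, -0.34 to -0.0038) took the place of Rbpj (0.10, -0.00090 to 0.21), whose call therefore rests on the scaling. The share of Notch2 in the receptor TPM was 41.9% ± 1.56 (SD, n = 2), from 40.8% to 43.0% with either replicate left out, 46.0% by raw counts and 39.9% by the longest coding transcript. The share of Jag1 in the ligand TPM was 32.7% ± 0.182 (SD, n = 2), from 32.5% to 32.8% with either replicate left out, 40.9% by raw counts and 33.3% by the longest coding transcript. Lengths account for these shifts by construction. Levels changed by factors of 0.794 to 1.5 with the longest coding transcript, an alternative chosen after seeing the data, and by 1.12 for every gene without features under 200 bp. RPKM differed from TPM by a nearly constant factor of 0.317. No paired analysis was possible because the series has 1 group. The ratio could not be recomputed with a library left out. Depth limits Dll4 most, whose 208 to 247 counts give the widest ratio interval of the set.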
